A study of Mus musculus with 15 samples.

Results

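Solute carriers are the membrane proteins, most of them named Slc with a family number, that move nutrients, ions, vitamins and metabolites across cell and organelle membranes. The 225 genes described here are the rows of the deposited log2 CPM table (CPM are counts scaled to the library's total) whose symbol starts with Slc and a digit and whose mean over the 15 libraries was at least 2. They were taken from 373 such symbols in a count table of 32544 genes, of which 323 were also in the log2 CPM table of 17531 genes. Of these 323, 94 lay under the mean, and 5 other carriers (*Slc9a3*, *Slc26a2*, *Slc26a3*, *Slc6a19* and *Slc12a7*) were set aside by the same rule and have a sentence of their own further on. The mean level chose the genes, so it is given only as a description. Just inside lay *Slc26a6* at 2.02, *Slc26a1* at 2.07 and *Slc4a8* at 2.09, and just outside *Slc38a11* at 1.93, *Slc25a45* at 1.89 and *Slc25a48* at 1.88. A mean of at least 2 was reached within each treatment by 212 of the 225, while 7 were under 2 in the untreated libraries and 6 under 2 in the DSS libraries. All 225 passed the expression filter of the test. They belonged to 46 families, grouped here by substrate into 11 classes, and 5 of them are not carriers but carry a carrier's name: the scaffold genes *Slc9a3r1* and *Slc9a3r2*, *Slc4a1ap*, *Slc7a6os* and the pseudogene *Slc2a4rg-ps*.

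The study sequenced total RNA of mouse colon, with or without experimental colitis, in 3 genotypes of *Tert*, the gene of the reverse transcriptase subunit of telomerase. Mice of 8 to 12 weeks drank 3% dextran sulfate sodium (DSS), which damages the lining of the colon, for 4 days and plain water for the next 4, and colons were harvested on day 8. The 6 groups were *Tert* knockout (KO, TERT-/-) with DSS, *Tert* VAA (a mouse line whose TERT is enzymatically inactive) with DSS and wild type (WT, TERT+/+) with DSS, with 3 libraries each, and KO, VAA and WT untreated, with 2 libraries each. The labels name no strain, do not say which part of the colon was taken and do not state that libraries of a group came from separate animals, so the p-values measure only the spread between these samples, which may be technical.

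Library totals were 10.6 to 17.5 M counts. *Tert* had 0 to 1 counts in the 5 KO libraries, 7 to 29 in the 5 VAA libraries and 23 to 40 in the 5 WT libraries. The 14 epithelial markers checked were all listed, with a summed level of 10600 to 17200 CPM over the 15 libraries. VAA DSS replicate 3, the shallowest library, stood apart at 102 on the second principal component, on which the other 14 libraries lay between -43.5 and 20.1, and counts without it are given below. The KO DSS libraries were the lowest on that component, at -43.5 to -34.3. On the first component they lay at 10.5 to 15.2, between the WT and VAA DSS libraries (41 to 63.8) and the untreated ones (-65.8 to -53.5). WT untreated replicate 2 and KO untreated replicate 2 carried Y-linked transcripts (1834 and 1666 counts, against 9 to 34 in the other libraries), and no DSS library did.

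Carriers work as uniporters, as cotransporters driven by sodium or proton gradients, or as exchangers. In the colon, sodium-coupled and proton-coupled monocarboxylate carriers take up the short-chain fatty acids that bacteria make, sodium/proton and bicarbonate carriers serve salt and water absorption, and zinc, iron, folate, riboflavin and thiamine carriers take up micronutrients. Several amino acid exchangers of family 7 reach the cell surface only when bound to the heavy chain *Slc3a2*. Other members act inside the cell, in lysosomes, mitochondria, the endoplasmic reticulum and the Golgi.

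DSS changed 119 of the 225 carriers, nearly as many upward as downward. Averaged over the 3 genotypes, 61 of the 225 rose and 58 fell at an adjusted p under 0.05 (edgeR quasi-likelihood test, Benjamini-Hochberg adjustment over the 17477 genes tested). That is 52.9% of the carriers, beside 42.6% of all genes tested and 47.8% of the genes that reach the same mean of 2, so the share was near that of genes of like level. Of all genes tested 22.5% rose and 20% fell. The median log2 fold change was -0.01 over the carriers and 0.01 over all genes tested. Among those called, 112 of 119 had the same sign of the fitted change in KO, VAA and WT. The call was made on the mean of these 3 changes, so such agreement is partly built in. The same share was not counted over all genes called. The 9 DSS libraries lay wholly above the 6 untreated ones for 21 that rose (6.89% of all genes tested were called higher this way) and wholly below for 23 that fell (5.71%). With limma on the deposited log2 CPM, which has no scaling factor, 48 rose and 67 fell. Without VAA DSS replicate 3, 69 rose and 66 fell. With sex as a covariate 49 rose and 49 fell, and without both libraries with Y-linked transcripts 46 rose and 47 fell.

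Marker genes of several cell types moved with DSS too. All 10 smooth muscle markers fell, with summed levels of 607 to 2490 CPM in the DSS libraries and 3840 to 6830 CPM in the untreated ones. Of 10 neutrophil markers 9 rose (369 to 816 CPM with DSS, 104 to 193 CPM untreated), and of 10 monocyte and macrophage markers 9 rose (235 to 645 CPM with DSS, 136 to 232 CPM untreated). The 14 epithelial markers were split, with 3 higher and 4 lower. The part of these shifts in the carrier changes was not tested, and in bulk tissue fewer cells of a type and less RNA per cell cannot be told apart.

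**Figure D1:**
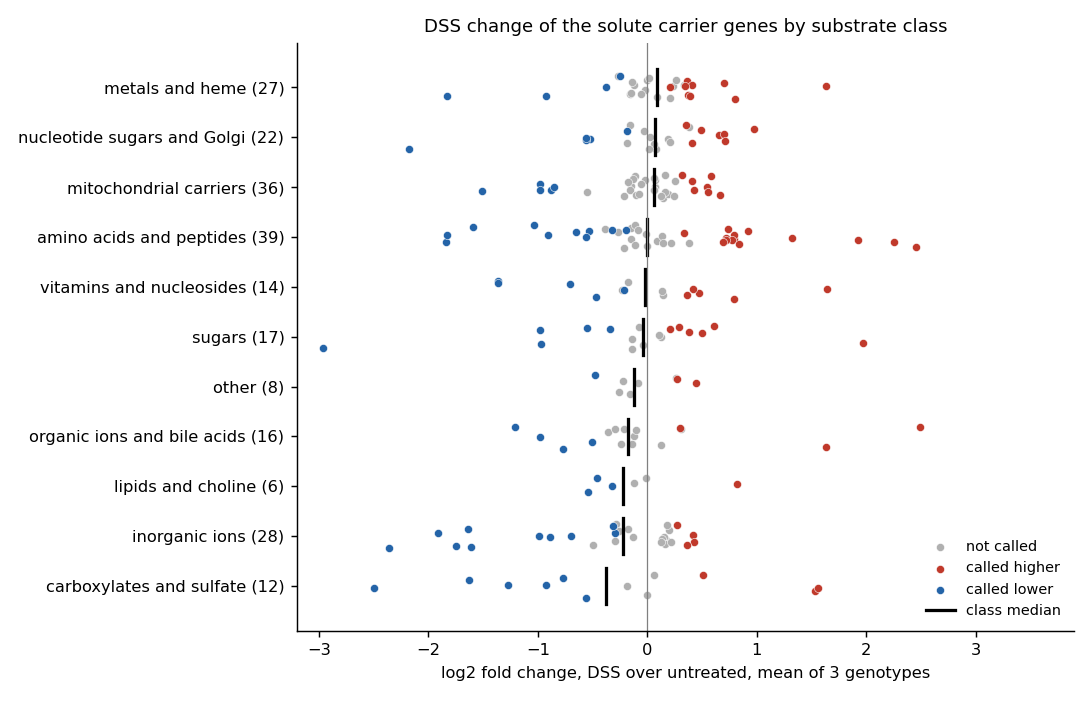
Log2 fold change of each of the 225 carriers, DSS over untreated as the mean of 3 genotypes (horizontal axis), by substrate class with the number of genes in brackets (vertical axis, ordered by class median). Points are genes, red called higher, blue called lower, grey not called, and black bars are class medians, which run from -0.37 (carboxylates and sulfate) to 0.09 (metals and heme).

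Amino acid and peptide carriers, the largest class, held the largest number of changes, 14 higher and 10 lower of 39, with a median of -0.00. Their share called was 61.5%, beside 42.6% of all genes tested and 47.8% of genes that reach the same mean of 2. The carboxylate and sulfate class had the highest share, 75%. The cationic and heteromeric amino acid carriers of family 7 mostly rose: 7 of 10 were higher (*Slc7a1*, *Slc7a2*, *Slc7a5*, *Slc7a6*, *Slc7a7*, *Slc7a9* and *Slc7a11*), *Slc7a4* was lower and 2 were not called. *Slc7a5*, the exchanger of large neutral amino acids such as leucine, had a lowest, median and highest level of 14.4, 42.3 and 95.2 CPM with DSS and of 5.65, 6.80 and 8.41 CPM untreated. Its log2 fold change was 2.45 ± 0.26 (SE, 9 and 6 libraries, adjusted p = 8.1e-06), and every DSS library was above every untreated one. *Slc7a9*, a cystine and dibasic amino acid carrier of absorptive epithelium, rose by 2.25 ± 0.37 on the log2 scale (adjusted p = 0.00032), with 3.55 to 17.3 CPM with DSS and 1.16 to 3.58 CPM untreated, overlapping at a single DSS library, VAA DSS replicate 3.

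*Slc7a11*, the cystine/glutamate exchanger that supplies cysteine for glutathione, had a lowest, median and highest level of 31.7, 81.5 and 120 CPM with DSS and of 22.8, 26.5 and 34.2 CPM untreated, a log2 fold change of 1.32 ± 0.12 (adjusted p = 2.8e-06). The 3 lowest DSS libraries, 2 of them within the untreated range, were those of KO. The heavy chain *Slc3a2*, the partner of *Slc7a5* and *Slc7a11*, moved little: 40.6, 53.4 and 93.1 CPM (lowest, median, highest) with DSS and 44, 46.1 and 47.6 CPM untreated, a log2 fold change of 0.33 ± 0.12 (adjusted p = 0.044). That call of *Slc3a2* was lost when any 1 of 12 libraries was left out, all but VAA DSS replicates 2 and 3 and WT DSS replicate 3, with adjusted p up to 0.11, and also with sex as a covariate (adjusted p = 0.12) and without both libraries with Y-linked transcripts (adjusted p = 0.15).

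The promoters of these carriers were read for the amino acid response element, the site through which ATF4 and related factors are known to act on amino acid transporter genes. RefSeq promoters on GRCm38.p6, from 250 bases before to 50 after an annotated start, were given for 169 of the 225 carriers, some with several starts. None was given for *Slc7a5*, *Slc7a2* or *Slc15a3*, so these were not searched. Searched as TGATGCAA on both strands, the motif was in 4 of the 169, namely *Slc7a11*, *Slc7a7*, *Slc1a4* and *Slc50a1*. Counted by promoter, it was in 2.22% of the carriers' promoters (5 of 225) and in 0.895% of all 32851 promoters. *Slc7a7* entered this count more than once, with overlapping promoters that share the same site. *Slc7a11* (chr3:50443564-50443863, minus strand) held it once on each strand, 66 and 47 bases before that start, and its promoter is shown with both matches in capitals because the gene rose most of the 4 and its difference between KO and the other genotypes is described further on. The RefSeq records of *Slc7a11* (chr3:50364936-50499087) and *Slc7a7* (chr14:54369442-54420068) reach further upstream, so these windows lie at starts inside the recorded genes. The other 3 are shown as 30-base windows around the match: *Slc7a7* (chr14:54417927-54417956, minus strand), *Slc1a4* (chr11:20332699-20332728, minus strand) and *Slc50a1* (chr3:89270741-89270770, minus strand).
Slc7a11: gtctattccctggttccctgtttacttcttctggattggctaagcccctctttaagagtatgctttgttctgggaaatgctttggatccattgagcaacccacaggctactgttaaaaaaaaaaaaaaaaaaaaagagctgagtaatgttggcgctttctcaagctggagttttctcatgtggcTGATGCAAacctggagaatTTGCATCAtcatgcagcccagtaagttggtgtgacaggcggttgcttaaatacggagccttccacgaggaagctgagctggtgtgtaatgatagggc
Slc7a7: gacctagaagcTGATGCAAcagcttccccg
Slc1a4: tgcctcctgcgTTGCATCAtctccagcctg
Slc50a1: agtggtctcgaTGATGCAAggggtgcgcag

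With DSS, 3 of these 4 rose. By gene, the motif was in 3 of 48 carriers that rose, 0 of 41 that fell and 1 of 80 not called. With 4 genes, no conclusion is drawn from this split. *Slc7a7*, *Slc1a4* and *Slc50a1* are named for the motif, after their values were seen. Beside *Slc7a11*, *Slc7a7*, the light chain for dibasic amino acids, rose by 0.69 ± 0.09 on the log2 scale (adjusted p = 4.8e-05), with every DSS library (28.2 to 41 CPM) above every untreated one (18.5 to 25.4 CPM). *Slc1a4*, a carrier of alanine, serine and cysteine, rose by 0.79 ± 0.29 (adjusted p = 0.042), a call lost without any 1 of 9 libraries (adjusted p up to 0.12), with 8.07 to 40 CPM with DSS and 7.08 to 13.6 CPM untreated. *Slc50a1*, a sugar carrier, had a log2 difference of 0.11 ± 0.11 and was not called. The antioxidant response element, searched only as TGACNNNGC on both strands, was in 12.4% of all promoters and in 20.9% of the carriers' promoters. By gene, it was in 12 of 48 carriers that rose with DSS, 7 of 41 that fell and 21 of 80 not called. No match to TGACNNNGC was in the *Slc7a11* window. Other forms of the element were not searched, so whether that window holds another form was not tested.

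The remaining amino acid carriers that rose included *Slc15a3*, a lysosomal carrier of histidine and small peptides known from immune cells, which had 4.84, 12.7 and 24.4 CPM (lowest, median, highest) with DSS and 2.20, 2.88 and 4.77 CPM untreated. Its log2 fold change was 1.92 ± 0.19 (adjusted p = 4.1e-06), and the DSS and untreated libraries did not overlap. Among the amino acid and peptide carriers that fell, *Slc15a1*, the proton-coupled carrier of di- and tripeptides, fell by 1.84 ± 0.17 on the log2 scale (adjusted p = 3.2e-06), to 46.6 to 176 CPM with DSS, against 214 to 381 CPM untreated, without overlap. *Slc6a4*, the serotonin transporter, fell by 1.59 ± 0.24 (adjusted p = 0.00018), also without overlap, with 3.14 to 14.5 CPM with DSS and 19.9 to 31 CPM untreated. Smaller falls were measured for *Slc6a14*, a sodium- and chloride-coupled carrier of many amino acids (-0.53 ± 0.14, adjusted p = 0.008), and *Slc1a5*, a glutamine carrier (-0.32 ± 0.07, adjusted p = 0.002). *Slc15a2*, a second peptide carrier, had a log2 difference of -1.83 ± 0.65, whose call (adjusted p = 0.036) was lost without any 1 of 9 libraries (adjusted p up to 0.17) and with sex as a covariate (-0.82, adjusted p = 0.39).

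**Figure D2:**
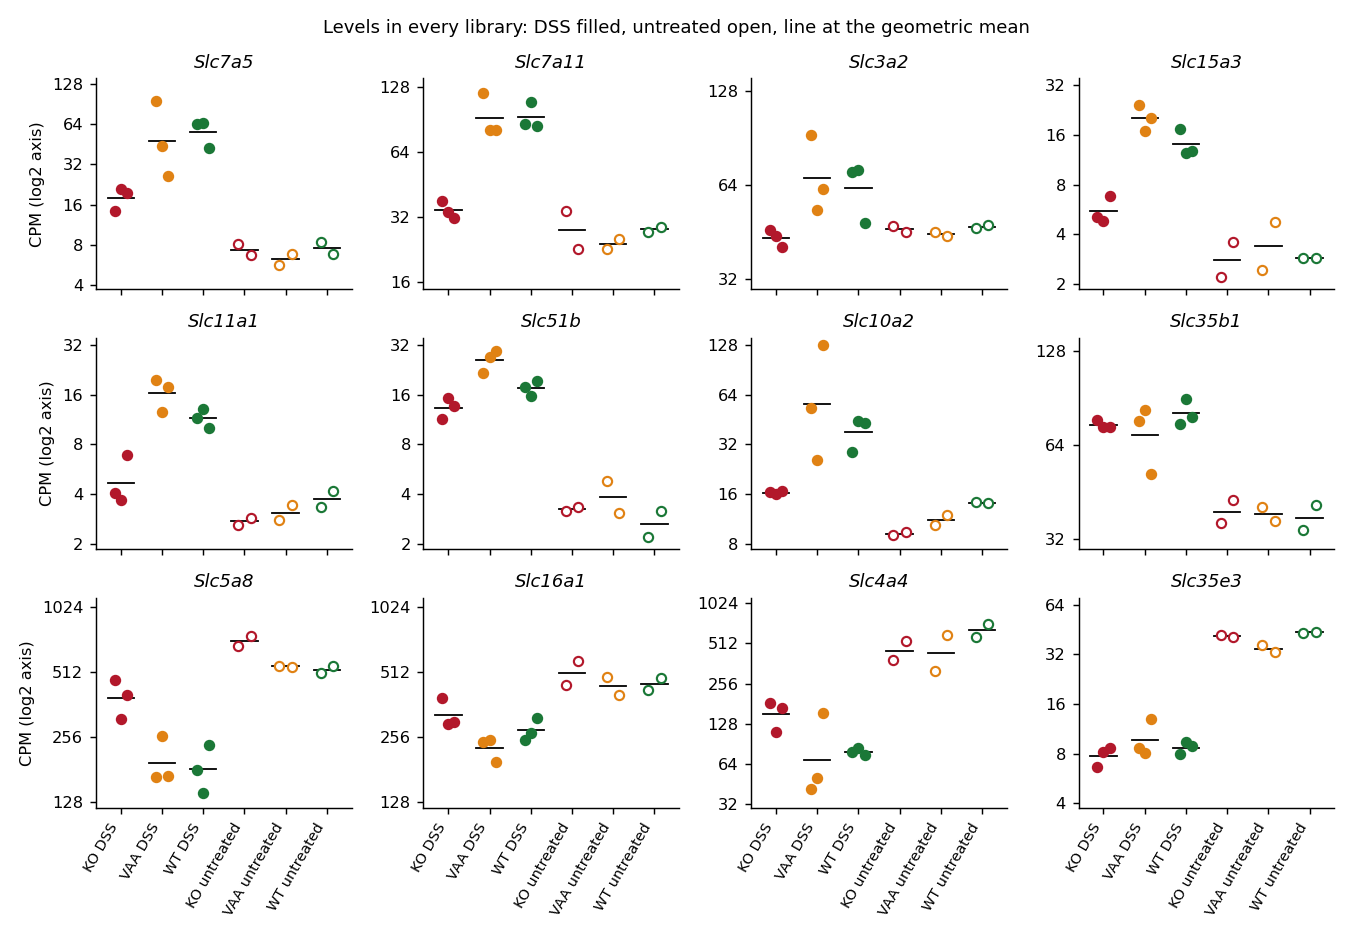
CPM of 12 carriers in every library on a log2 vertical axis, with KO, VAA and WT DSS libraries (filled) left of KO, VAA and WT untreated libraries (open) and a line at each group's geometric mean. *Slc7a11* lay at 31.7 to 37.9 CPM in KO DSS and at 81.2 to 120 CPM in VAA and WT DSS, whereas *Slc35e3* and *Slc35b1* changed with DSS in all 3 genotypes.

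mRNA of the short-chain fatty acid carriers *Slc5a8* and *Slc16a1* fell, and mRNA of the lactate carrier *Slc16a3* rose. Of the 12 carboxylate and sulfate carriers 3 were higher and 6 lower, the lowest class median (-0.37). *Slc5a8*, the sodium-coupled carrier of butyrate and other monocarboxylates, had 141, 234 and 470 CPM (lowest, median, highest) with DSS and 503, 543 and 747 CPM untreated, a log2 fold change of -1.27 ± 0.13 (adjusted p = 7.5e-06). *Slc16a1*, the proton-coupled monocarboxylate carrier MCT1, fell by 0.77 ± 0.10 (adjusted p = 4e-05), with 195 to 386 CPM with DSS and 400 to 575 CPM untreated. For both genes every DSS library was below every untreated one. *Slc16a12*, a creatine carrier, fell by 2.50 ± 0.21 (adjusted p = 1.1e-06) and *Slc16a9*, a carnitine carrier, by 1.63 ± 0.17 (adjusted p = 7.9e-06), both without overlap. In the other direction, *Slc16a3* (MCT4), a lactate exporter of glycolytic cells, rose by 1.53 ± 0.21 (adjusted p = 7e-05), to 15 to 47.8 CPM with DSS, against 7.63 to 13.6 CPM untreated. *Slc16a6*, of the same family, rose by 1.56 ± 0.14 (adjusted p = 1.8e-06), again without overlap.

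Carriers of inorganic ions fell more often than they rose, with 10 lower and 4 higher of 28 and a median of -0.22. *Slc4a4*, the sodium bicarbonate cotransporter of the basolateral membrane, had 41.5, 84.7 and 184 CPM (lowest, median, highest) with DSS and 320, 554 and 713 CPM untreated, a log2 fold change of -2.36 ± 0.26 (adjusted p = 1.1e-05). The phosphate carriers *Slc34a2* (-1.91 ± 0.31, adjusted p = 0.0003) and *Slc20a1* (-1.75 ± 0.16, adjusted p = 2.2e-06) fell as well. *Slc9a2*, a sodium/proton exchanger of the apical membrane, fell by 1.61 ± 0.14 (adjusted p = 1.6e-06), and it was the only 1 of 9 family 9 carriers called. The 4 that rose did so by at most 0.43, among them *Slc12a2*, the basolateral sodium-potassium-chloride cotransporter of secretory cells (0.42 ± 0.15, adjusted p = 0.035), a call lost without any 1 of 8 libraries with adjusted p up to 0.11, and without both libraries with Y-linked transcripts (adjusted p = 0.058).

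The largest rise of the 225 was that of *Slc51b*. This gene, for the beta subunit of the basolateral organic solute transporter that exports bile acids, had 11.3, 17.9 and 29.3 CPM (lowest, median, highest) with DSS and 2.19, 3.17 and 4.79 CPM untreated. Its log2 fold change was 2.49 ± 0.15 (adjusted p = 6.9e-08), and the groups did not overlap. The apical sodium bile acid transporter *Slc10a2* rose by 1.63 ± 0.28 (adjusted p = 0.00038), with 15.9 to 128 CPM with DSS and 9.06 to 14.2 CPM untreated. The highest of these values, 128 CPM, was VAA DSS replicate 3, without which the change was 1.37. *Slc51a*, the alpha subunit that *Slc51b* needs at the membrane, was not in the log2 CPM table. Within the same class of 16, *Slc10a5*, a relative of the bile acid carriers with no settled substrate, fell by 1.21 ± 0.13 (adjusted p = 9.9e-06), and the carnitine carrier *Slc22a5* had a log2 difference of -0.14 ± 0.09 that was not called (adjusted p = 0.24).

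Among the 17 sugar carriers 6 rose and 5 fell, including the largest fall of the 225. *Slc37a2*, a sugar-phosphate carrier of the endoplasmic reticulum, had 8.83, 59.2 and 207 CPM (lowest, median, highest) with DSS and 250, 427 and 667 CPM untreated, a log2 fold change of -2.96 ± 0.39 (adjusted p = 4.7e-05). *Slc2a13*, a proton-coupled myo-inositol carrier, fell by 0.98 ± 0.12 (adjusted p = 3.1e-05). *Slc5a9*, a sodium-coupled carrier of mannose and fructose, rose by 1.97 ± 0.16 (adjusted p = 9.3e-07), to 23.8 to 98.8 CPM with DSS, against 10.3 to 15.6 CPM untreated. The glucose carriers moved less and in both directions: *Slc2a1* (GLUT1) by 0.38 ± 0.10 (adjusted p = 0.0076), *Slc2a3* (GLUT3) by 0.61 ± 0.13 (adjusted p = 0.0024) and *Slc5a1* (SGLT1) by -0.34 ± 0.08 (adjusted p = 0.0056). *Slc2a4*, the insulin-responsive GLUT4 of muscle and fat, had a log2 difference of -0.97 ± 0.32 (adjusted p = 0.027), with 23.8 CPM in VAA DSS replicate 3 and 3.22 to 9.42 CPM in the other DSS libraries. Its change was -1.35 without that library, and its call was lost without any 1 of 6 other libraries (adjusted p up to 0.066), with sex as a covariate (adjusted p = 0.062) and without both libraries with Y-linked transcripts (adjusted p = 0.081).

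Metal and heme carriers were 9 higher and 4 lower of 27. *Slc11a1*, the metal pump of macrophage phagosomes, had 3.68, 11.6 and 19.6 CPM (lowest, median, highest) with DSS and 2.59, 3.11 and 4.17 CPM untreated, a log2 fold change of 1.63 ± 0.17 (adjusted p = 9.3e-06), with 2 KO DSS libraries within the untreated range. The zinc importers of family 39 were split, with 5 of 12 higher and 3 lower. *Slc39a4* (ZIP4), the apical zinc importer, rose by 0.70 ± 0.08 (adjusted p = 2.5e-05), without overlap, while *Slc39a5* (ZIP5), its basolateral counterpart, fell by 1.83 ± 0.21 (adjusted p = 2.1e-05), to 2.21 to 36.6 CPM with DSS, against 40.1 to 53.9 CPM untreated. *Slc40a1*, the iron exporter ferroportin, fell by 0.93 ± 0.22 (adjusted p = 0.0047), a call lost without both libraries with Y-linked transcripts (-0.69, adjusted p = 0.054). The iron importer *Slc11a2* and the zinc and manganese carriers *Slc39a8* and *Slc39a14* did not pass the test, with log2 differences of 0.09 ± 0.08, 0.26 ± 0.14 and 0.33 ± 0.20.

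Of the 36 mitochondrial carriers, 24 were not called, 7 rose and 5 fell. *Slc25a23*, a calcium-regulated carrier of ATP-magnesium and phosphate, fell by 1.51 ± 0.20 (adjusted p = 5.9e-05) and *Slc25a36*, a pyrimidine nucleotide carrier, by 0.98 ± 0.10 (adjusted p = 7e-06). *Slc25a28*, mitoferrin 2, which brings iron into mitochondria, rose by 0.58 ± 0.11 (adjusted p = 0.00067). Its relative *Slc25a37*, mitoferrin 1, had a difference of 0.32 ± 0.10 (adjusted p = 0.018), lost without WT untreated replicate 1 or VAA untreated replicate 1 (adjusted p up to 0.07), and without both libraries with Y-linked transcripts (adjusted p = 0.06).

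*Slc35e3*, a Golgi-family carrier of unknown substrate, gave one of the most uniform falls. Its lowest, median and highest levels were 6.59, 8.62 and 13 CPM with DSS and 32.9, 41.3 and 43.9 CPM untreated, a log2 fold change of -2.18 ± 0.11 with the smallest adjusted p of the 225 (2.3e-08). Of the 22 nucleotide sugar and Golgi carriers 7 rose and 5 fell. *Slc35b1*, which brings ATP into the endoplasmic reticulum, rose by 0.97 ± 0.10 (adjusted p = 9.7e-06), *Slc35d1*, a nucleotide sugar carrier, by 0.70 ± 0.06 (adjusted p = 1.9e-06) and *Slc35f6* by 0.71 ± 0.07 (adjusted p = 2.9e-06), and in all 3 genes the DSS libraries lay above the untreated ones.

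Vitamin and nucleoside carriers were 5 higher and 5 lower of 14. The proton-coupled folate carrier *Slc46a1* (-1.36 ± 0.22, adjusted p = 0.00028) and the biotin and pantothenate carrier *Slc5a6* (-1.36 ± 0.16, adjusted p = 1.8e-05) fell. The riboflavin carrier *Slc52a3* (0.42 ± 0.10, adjusted p = 0.0033) and the thiamine pyrophosphate carrier of the colon, *Slc44a4* (0.47 ± 0.08, adjusted p = 0.0004), rose. Among nucleoside carriers the concentrative *Slc28a2* (1.64 ± 0.24, adjusted p = 0.00014) and *Slc28a3* (0.79 ± 0.09, adjusted p = 1.4e-05) rose and the equilibrative *Slc29a1* fell by 0.71 ± 0.07 (adjusted p = 5.9e-06), each without overlap of DSS and untreated libraries. Of the 6 lipid and choline carriers, the choline carrier of nerve endings *Slc5a7* rose (0.82 ± 0.19, adjusted p = 0.0041) and 3 fell, among them the choline carrier *Slc44a1* (-0.46 ± 0.10, adjusted p = 0.0031).

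Taken genotype by genotype, fewer carriers passed the test in KO. DSS against untreated called 16 higher and 18 lower in KO (15.1%, beside 10.7% of all genes tested, 5.59% higher and 5.06% lower), 40 higher and 37 lower in VAA (34.2%, beside 20.4%, 10.9% higher and 9.54% lower) and 40 higher and 39 lower in WT (35.1%, beside 26.6%, 14.1% higher and 12.5% lower). In all 3 genotypes 13 carriers rose and 14 fell, and 123 were called in no genotype. The same pattern was not counted over all genes tested. *Slc51b* rose in each, by 2.03 ± 0.25 in KO, 2.71 ± 0.25 in VAA and 2.72 ± 0.26 in WT (adjusted p = 0.00048, 1.6e-05 and 2.3e-05). *Slc35e3* fell in each, with log2 fold changes of -2.41 ± 0.19 in KO, -1.82 ± 0.19 in VAA and -2.31 ± 0.19 in WT (adjusted p = 2.2e-05, 2.9e-05 and 8.5e-06). *Slc7a11* had a difference of 0.27 ± 0.21 in KO (adjusted p = 0.43) and rose by 1.97 ± 0.22 in VAA (adjusted p = 4.8e-05) and 1.73 ± 0.21 in WT (adjusted p = 0.00014).

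A smaller number of calls in KO does not by itself show a different response. When the DSS effect in KO was set against that in WT in 1 fit (interaction), 0 of the 225 passed in edgeR, with 27 at an unadjusted p under 0.05, 3 called by DESeq2 and 0 by limma, and 0% of all genes tested passed. The lowest interaction was -1.98 and the highest 1.94 on the log2 scale. DSS in VAA against WT gave 0 in edgeR, DESeq2 and limma, with 8 at an unadjusted p under 0.05. The KO count was also the least stable: leaving out KO untreated replicate 1 gave 5 and KO untreated replicate 2 gave 13, KO DSS replicates 2 and 3 gave 18 and 22, VAA DSS replicate 3 gave 62, and sex as a covariate gave 22. With limma on the deposited log2 CPM it was 12 higher and 25 lower, on a scale where the median of all genes lay 0.14 lower. *Slc20a1*, *Slc29a1*, *Slc35e3* and *Slc51b* were the 4 that stayed called in KO whichever library was left out. In WT the count was 43 without untreated replicate 1, 44 without untreated replicate 2 and 52 without DSS replicate 2, and in VAA it was 46 and 49 without untreated replicates 1 and 2.

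**Figure D3:**
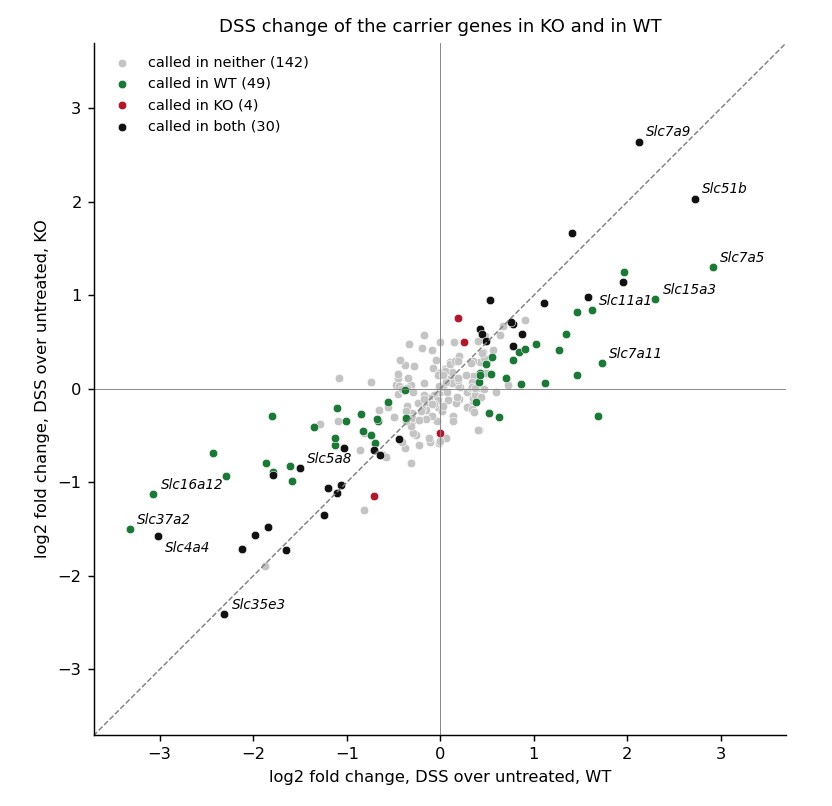
Log2 fold change of each of the 225 carriers, DSS over untreated, in KO (vertical axis) against WT (horizontal axis), coloured by the genotype in which it was called, with a dashed line of equal change. In all, 30 carriers were called in both, 49 in WT and not KO, 4 in KO and not WT and 142 in neither, and *Slc7a11* lay near 0 in KO.

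Under DSS, *Slc7a11*, *Slc7a5*, *Slc7a2*, *Slc15a3* and *Slc11a1* were lower in KO colon than in WT colon, and *Slc5a8*, *Slc16a12*, *Slc9a2* and *Slc22a23* were higher. Of the 225 carriers 13 were higher and 7 lower in KO DSS than in WT DSS, 8.89%, beside 5.67% of all genes tested and 6.79% of those that reach the same mean of 2, so the share was near that of genes of like level. Of all genes tested 3.21% were higher and 2.46% lower. KO and WT DSS libraries did not overlap for any of these 20. They were already called from the same libraries, so this adds little, and the share without overlap was not counted over all genes tested. The median log2 difference was 0.06 over the carriers and -0.01 over all genes tested. By class the lower ones were 5 amino acid carriers, *Slc11a1* and *Slc25a4*, and the higher ones were spread over 9 classes with at most 3 in each.

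*Slc7a11* had 37.9, 34 and 31.7 CPM in KO DSS, against 86.4, 109 and 84.9 CPM in WT DSS, and in the KO untreated libraries it had 34.2 and 22.8 CPM. The KO over WT difference was -1.44 ± 0.18 on the log2 scale (adjusted p = 0.0019). *Slc7a5* had 14.4, 20.9 and 19.5 CPM in KO DSS, against 63.8, 65.6 and 42.3 CPM in WT DSS, a difference of -1.64 ± 0.36 (adjusted p = 0.021). *Slc7a2*, a carrier of arginine and lysine that serves nitric oxide synthesis in macrophages, had 7.29, 5.87 and 5.80 CPM in KO DSS, against 16.8, 15.5 and 15.3 CPM in WT DSS, a difference of -1.33 ± 0.26 (adjusted p = 0.015). With *Slc7a6*, chosen after its values were seen (-0.78 ± 0.19, adjusted p = 0.034), 4 of the 10 family 7 carriers were lower and 0 higher. The heavy chain *Slc3a2* had 46.1, 43.9 and 40.6 CPM in KO DSS and 70.5, 71.6 and 48.5 CPM in WT DSS, a log2 difference of -0.54 ± 0.19 that was not called (adjusted p = 0.11).

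Outside family 7, *Slc15a3* had 5.12, 4.84 and 6.84 CPM in KO DSS, against 17.4, 12.5 and 12.7 CPM in WT DSS (-1.34 ± 0.27, adjusted p = 0.014). *Slc11a1* had 4.03, 3.68 and 6.91 CPM in KO DSS, against 11.6, 13 and 10.1 CPM in WT DSS (-1.24 ± 0.25, adjusted p = 0.016). Of the neutrophil markers 7 of 10 were lower and 0 higher in KO DSS, with sums of 369 to 433 CPM in KO DSS and 458 to 510 CPM in WT DSS. Of the monocyte and macrophage markers 2 of 10 were lower and 0 higher, with sums of 235 to 329 CPM in KO DSS and 319 to 535 CPM in WT DSS. The part of these markers in the carrier differences was not tested.

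Of the 13 carriers that were higher in KO DSS than in WT DSS, 10 had fallen with DSS averaged over genotypes. Both comparisons use the KO DSS and WT DSS libraries, and the same share was not counted over all genes tested. *Slc5a8* had 470, 310 and 398 CPM in KO DSS, against 180, 141 and 234 CPM in WT DSS, a difference of 1.09 ± 0.21 (adjusted p = 0.013). *Slc16a12* had 4.03, 6 and 6.69 CPM in KO DSS, against 2.19, 1.15 and 1.53 CPM in WT DSS (1.77 ± 0.35, adjusted p = 0.013). *Slc9a2* had 185, 118 and 133 CPM in KO DSS, against 52.4, 55.0 and 97.4 CPM in WT DSS (1.09 ± 0.22, adjusted p = 0.016). In each case the KO DSS libraries lay between the WT DSS and the untreated libraries, as they did on the first principal component. *Slc22a23*, an organic ion carrier of unknown substrate, had 162, 156 and 155 CPM in KO DSS, against 87.5, 78.5 and 103 CPM in WT DSS (0.81 ± 0.11, adjusted p = 0.0029). *Slc2a13* (0.90 ± 0.19, adjusted p = 0.02) and the scaffold gene *Slc9a3r1* (0.74 ± 0.16, adjusted p = 0.021), whose product anchors apical transporters, were higher too. Of the 14 epithelial markers 2 were higher and 0 lower in KO DSS, with sums of 14000 to 17200 CPM in KO DSS and 11400 to 12200 CPM in WT DSS, and their part in these differences was not tested.

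These 20 calls rested on few libraries. *Slc7a11* and *Slc22a23* were called whichever library was left out, with adjusted p up to 0.014 and 0.02. The count was 3 without WT DSS replicate 1, 2 without WT DSS replicate 2, 4, 10 and 6 without KO DSS replicates 1, 2 and 3, 13 without WT untreated replicate 2 and 51 without VAA DSS replicate 3, and all 20 kept their sign throughout. Without 1 library the highest adjusted p was 0.1 for *Slc7a5*, 0.065 for *Slc7a2*, 0.068 for *Slc15a3*, 0.082 for *Slc11a1*, 0.074 for *Slc5a8*, 0.082 for *Slc16a12*, 0.1 for *Slc9a2*, 0.11 for *Slc2a13*, 0.11 for *Slc9a3r1* and 0.2 for *Slc7a6*. With limma on the deposited log2 CPM the split was 9 higher and 16 lower. *Slc15a3*, *Slc51b*, *Slc46a1* and *Slc25a35* overlap a neighbouring RefSeq gene (*Tmem132a*, *Rasl12*, *Sarm1* and *Rangrf*, in that order), with which their counts may share reads. Other named carriers do so too, among them *Slc16a3* (*Csnk1d*), *Slc16a6* (*Arsg*), *Slc7a7* (*Oxa1l*) and *Slc5a6* (*Atraid*).

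**Figure D4:**
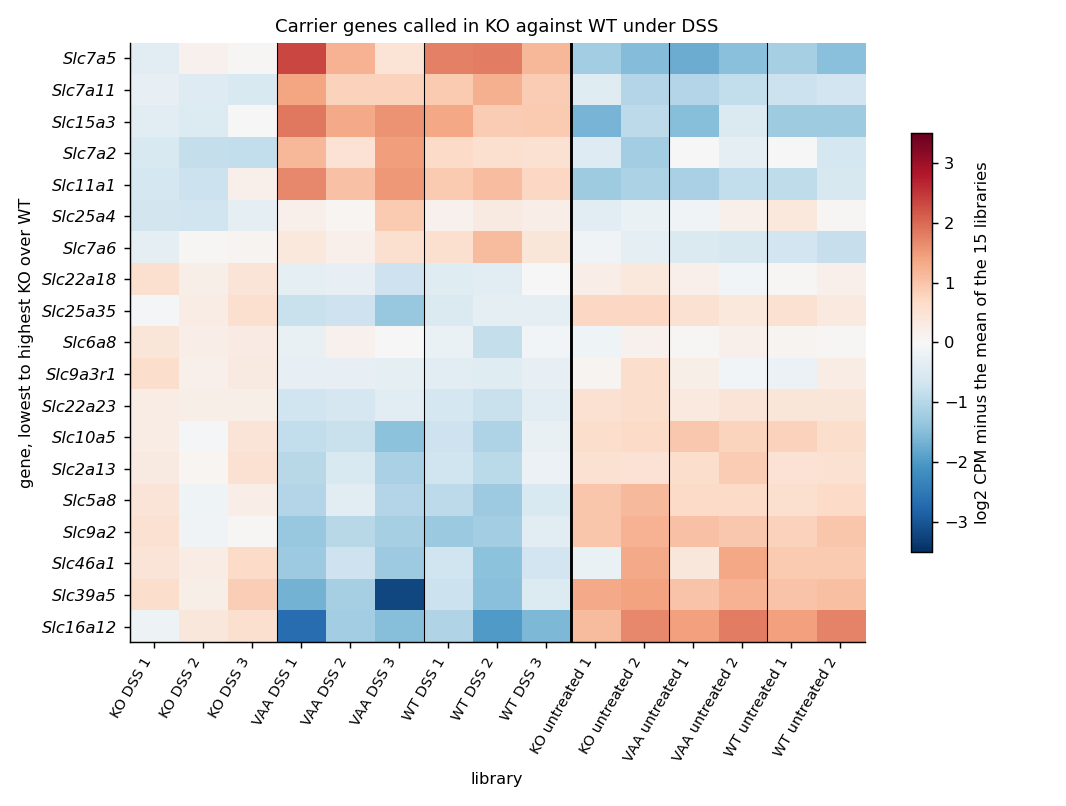
Of the 20 carriers called in KO against WT under DSS, 19 (rows, from the lowest to the highest KO over WT difference) in the 15 libraries (columns, DSS left of untreated), coloured by log2 CPM minus the gene's mean over all libraries. In the top 7 rows the 3 KO DSS libraries lie below the WT DSS libraries, and in the lower 12 rows above them.

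KO was also set against VAA under DSS, a comparison that uses the same KO DSS libraries as the one above. Of the 225 carriers 31 were higher and 25 lower in KO DSS than in VAA DSS, 24.9%, beside 15.4% of all genes tested and 16.6% of those that reach the same mean of 2. Of all genes tested 6.01% were higher and 9.41% lower. The median log2 difference was 0.06 over the carriers. *Slc7a11* had 120, 81.2 and 81.5 CPM in VAA DSS, and KO was lower by 1.45 ± 0.18 on the log2 scale (adjusted p = 0.00077). *Slc7a2* had 23.5, 15.1 and 28.9 CPM in VAA DSS (-1.83 ± 0.27, adjusted p = 0.0012), *Slc15a3* had 24.4, 16.9 and 20.3 CPM (-1.87 ± 0.27, adjusted p = 0.0012) and *Slc11a1* had 19.6, 12.6 and 17.7 CPM (-1.77 ± 0.25, adjusted p = 0.0012). The KO DSS values given above lay below all 3 VAA DSS values in each of these genes.

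*Slc5a9* had 23.8, 29.7 and 41.8 CPM in KO DSS, against 98.8, 60.9 and 92.7 CPM in VAA DSS (-1.40 ± 0.23, adjusted p = 0.0023). Both *Slc51b* and *Slc10a2* were lower in KO: *Slc51b* had 11.3, 15.2 and 13.6 CPM in KO DSS, against 21.7, 27 and 29.3 CPM in VAA DSS (-0.95 ± 0.20, adjusted p = 0.0075), and *Slc10a2* had 16.4, 15.9 and 16.6 CPM in KO DSS, against 52.7, 25.8 and 128 CPM in VAA DSS (-2.07 ± 0.41, adjusted p = 0.0063). The heavy chain *Slc3a2* was lower by 0.68 ± 0.19 (adjusted p = 0.028), a call lost without VAA DSS replicate 1 or any KO DSS library (adjusted p up to 0.1), and *Slc7a5* by 1.59 ± 0.36 (adjusted p = 0.011), lost without KO DSS replicate 1 (adjusted p = 0.052).

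Higher in KO DSS than in VAA DSS were *Slc39a5*, with 31, 23.1 and 36.6 CPM in KO DSS, against 6.38, 9.08 and 2.21 CPM in VAA DSS (2.32 ± 0.36, adjusted p = 0.0017), and *Slc9a2* (1.32 ± 0.22, adjusted p = 0.003), with 51.1, 65.5 and 57.6 CPM in VAA DSS. *Slc25a35*, a mitochondrial carrier of unknown substrate, had 17.8, 21.7 and 26.6 CPM in KO DSS, against 10.5, 11 and 7.2 CPM in VAA DSS (1.19 ± 0.18, adjusted p = 0.0016). *Slc22a23* (0.78 ± 0.11, adjusted p = 0.0012), *Slc2a13* (1.17 ± 0.19, adjusted p = 0.0026), *Slc5a8* (0.99 ± 0.21, adjusted p = 0.0082) and *Slc16a12* (1.96 ± 0.35, adjusted p = 0.0039) were higher as well. *Slc15a1*, *Slc16a1*, *Slc5a1* and *Slc6a14* were higher by 0.52 to 0.91 (adjusted p = 0.017 to 0.047), calls that 2 to 13 single libraries could remove (adjusted p up to 0.16).

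Of the 56 calls 23 held whichever library was left out, among them *Slc7a11*, *Slc7a2*, *Slc15a3*, *Slc11a1*, *Slc5a8*, *Slc51b*, *Slc10a2*, *Slc39a5*, *Slc22a23*, *Slc9a2*, *Slc2a13*, *Slc5a9*, *Slc25a35* and *Slc16a12*. The count was 31, 34 and 33 without KO DSS replicates 1, 2 and 3, 45 without VAA DSS replicate 3 and 18 in a fit of these 2 groups alone. The markers of other cells moved here too. Of 10 neutrophil markers 8 were lower and 1 higher in KO DSS. Lower in KO DSS were also 5 of 10 monocyte and macrophage markers and 9 of 10 markers of enteric neurons and glia, with 0 higher in either list. Of 14 epithelial markers 5 were higher and 0 lower, with sums of 14000 to 17200 CPM in KO DSS and 10600 to 12600 CPM in VAA DSS. The nerve and glia sum was 21.4 to 30.1 CPM in KO DSS and 52.7 to 289 CPM in VAA DSS. The part of these markers in the carrier differences was not tested.

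No carrier was called between VAA and WT under DSS by edgeR, DESeq2 or limma. At an unadjusted p under 0.05 there were 27 of 225, and 0.00572% of all genes tested were called. Without VAA DSS replicate 2 edgeR called 8. The lowest log2 difference was -0.90 and the highest 1.39. *Slc7a11* differed by 0.02 ± 0.18 (adjusted p = 0.97) and *Slc5a8* by 0.10 ± 0.21 (adjusted p = 0.83) between VAA DSS and WT DSS. Untreated, edgeR, DESeq2 and limma called 0 carriers for KO against WT, KO against VAA and VAA against WT, with 9, 10 and 1 at an unadjusted p under 0.05 and 0% of all genes tested called by edgeR. With 2 libraries in each untreated group, log2 differences ran from -0.62 to 0.70 for KO over WT.

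Partner genes and transporters outside the Slc nomenclature were tested beside the carriers. Of 36 tested, DSS raised 10 and lowered 12, with a median log2 fold change of 0.07. *Mfsd2a*, a sodium-dependent carrier of lysophospholipids that carry omega-3 fatty acids, gave the largest change: 9.62, 13.6 and 14.2 CPM in KO DSS, 45, 35.7 and 30 CPM in VAA DSS and 54.3, 37.1 and 18.1 CPM in WT DSS, against 0.358 to 1.07 CPM untreated (5.4 ± 0.29, adjusted p = 3.5e-08). It was lower in KO DSS than in WT DSS by 1.54 ± 0.31 (adjusted p = 0.015) and than in VAA DSS by 1.56 ± 0.31 (adjusted p = 0.0062). The 2 chaperones of the monocarboxylate carriers went apart: *Emb* (embigin) rose by 1.97 ± 0.17 with DSS (adjusted p = 1.5e-06) and *Bsg* (basigin) fell by 0.30 ± 0.08 (adjusted p = 0.0056). In KO DSS against WT DSS *Emb* was lower (-1.26 ± 0.24, adjusted p = 0.012) and *Bsg* higher (0.45 ± 0.12, adjusted p = 0.042). *Abcb1a*, the efflux pump P-glycoprotein, fell by 2.87 ± 0.18 with DSS (adjusted p = 1.5e-07). Against VAA DSS, 5 of the 36 were higher and 11 lower in KO DSS, and against WT DSS 2 were higher and 3 lower. Of the 5 carriers set aside, *Slc26a2* (-1.89 ± 0.12), *Slc26a3* (-1.47 ± 0.13) and *Slc12a7* (-0.70 ± 0.08) fell with DSS, while *Slc9a3* (0.38 ± 0.41) and *Slc6a19* (0.14 ± 0.28) were not called.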

How the data were processed

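Total RNA of 15 mouse colon libraries was read as paired ends. Estimated counts by gene symbol were deposited, made with kallisto 0.46 on mm10 per the submitters' processing notes, and log2 CPM for 17531 genes, which a prior count of 2 and plain library totals gave again from the counts to within 0.018. The deposited counts were whole numbers. The transcript annotation and the use of strand were not given in the labels, and 91 of the 225 carriers overlap another RefSeq gene, so reads of such pairs may be split.

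The quasi-likelihood test of edgeR 4.0.16 (R 4.3.3) was run on the 17477 genes its expression filter kept, with TMM scaling and 1 fitted mean for each of the 6 groups over 15 libraries. The 12 comparisons were contrasts of these means, adjusted by Benjamini-Hochberg within each comparison over all genes tested, with calls at 0.05. CPM here are counts scaled to library totals times the same factors. Totals were 10.6 to 17.5 M counts, and the spread between replicates, not counting error alone, sets the standard errors. The script was tested on simulated counts with known changes.

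Alternatives were limma 3.58.1 on the deposited log2 CPM, the DESeq2 1.42.0 test, its size factors in edgeR, all genes without the filter, fits limited to the groups compared, sex or the replicate number in the model, leaving out both libraries with Y-linked transcripts, and each of the 15 libraries left out in turn. Samples with equal replicate numbers were not treated as paired, since no label ties them. Genes were named by a rule: a list of known transporters, the 3 highest and 3 lowest called per class for DSS, and up to 10 called with the smallest p per genotype comparison. Carriers, classes, partner genes, marker lists and the rule were chosen with earlier results of these data known. Substrate classes came from general knowledge of the families. Promoters are RefSeq, GRCm38.p6. Some genes that enter the counts are not reported here by name. No column belonged to a sample outside the 15.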

Additional observations from a re-analysis of the deposited data

Results flagged for a closer look

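For 8 carriers every DSS library lay on one side of the untreated libraries in KO and on the other side in WT. This was 3.56% of the carriers, 1.97% of all genes tested and 2.12% of genes that reach the same mean of 2. The test of the difference itself, DSS in KO minus DSS in WT in edgeR, passed for none of them, with adjusted p from 0.28 to 0.61 (27 of 225 carriers had an unadjusted p under 0.05, and DESeq2 called 3).

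*Slc25a37*, mitoferrin 1, had 34.7, 34.9 and 39.3 CPM in KO DSS, against 44.4 and 45 CPM in KO untreated. In WT it had 48.9, 60.3 and 45.6 CPM with DSS, against 32 and 34.8 CPM untreated, and the difference of the effects was -0.93 ± 0.24 on the log2 scale. The zinc carrier *Slc39a14* had 39.4, 44.7 and 42.7 CPM in KO DSS, against 60.2 and 54.5 CPM in KO untreated, and 58.1, 67.6 and 57.2 CPM in WT DSS, against 41.8 and 50.5 CPM in WT untreated, a difference of -0.84 ± 0.49. The zinc exporter *Slc30a4* gave -0.77 ± 0.24. The mitochondrial carrier *Slc25a14* gave -0.61 ± 0.33, the CMP-sialic acid carrier *Slc35a1* -0.52 ± 0.18, *Slc12a9* -0.48 ± 0.26 and *Slc35e1* -0.28 ± 0.16. The creatine carrier *Slc6a8* went the other way, with DSS libraries above untreated ones in KO and below them in WT (0.74 ± 0.27).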

How the results depend on the processing

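None of the values of named genes turned round in sign under the alternatives tried, while some class medians near 0 did. Of 2088 alternative values of 78 named genes (94 values), 1964 kept their direction and their side of the threshold, 123 lost their call, 91 of them with 1 library left out, and *Slc39a14* gained one for DSS without VAA DSS replicate 2 (0.43, adjusted p = 0.038 in edgeR). The DSS count averaged over genotypes stayed within 1.5 times the 119 of the main test, with 102 to 135 when single libraries were left out. The lowest counts were 98 with sex as a covariate and 93 without both libraries with Y-linked transcripts.

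The counts for single comparisons moved more. DSS in WT (79) gave 43 without both libraries with Y-linked transcripts and 43 to 109 without single libraries. DSS in VAA (77) gave 29 with only the groups compared and 46 to 90 without single libraries. DSS in KO (34) gave 55 with only the groups compared, 22 with sex as a covariate, 11 without both libraries with Y-linked transcripts and 5 to 62 without single libraries. KO against WT under DSS (20) gave 38 with DESeq2, 52 with only the groups compared, 12 without both libraries with Y-linked transcripts and 2 to 51 without single libraries. KO against VAA under DSS (56) gave 18 with only the groups compared and 31 to 72 without single libraries. VAA against WT under DSS gave 0 to 8 without single libraries, and DSS in KO minus DSS in WT gave 3 with DESeq2 and 1 with only the groups compared. The cause was not tested in these cases.

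Of 242 alternative medians of the 11 classes, 23 moved across 0, with values between -0.01 and 0.14. Limma on the deposited log2 CPM put the median of all genes 0.14 lower for DSS in KO and 0.10 lower for KO against WT under DSS.

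The replicate number as a block called 57 higher and 57 lower for DSS averaged over genotypes, 45 for DSS in KO, 21 for KO against WT under DSS and 56 for KO against VAA under DSS. Deviations from the group means correlated at -0.16 to 0.31 in the 33 same-numbered pairs, above 0.1 in 8 of them, and 7 of the 15 libraries correlated best with their own number, so the number did not pair the samples. The block removed the call of 4 named genes.

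Depth limits the least abundant carriers, near 4 CPM at the lower edge of the choice, and groups of 2 untreated libraries limit every comparison within 1 genotype.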
